A study of Mus musculus with 3 samples.

Results

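The genes described here encode the PIWI proteins of the mouse and the factors that make and protect their small RNAs. There are 10 members, taken by name, of 21755 protein-coding genes annotated on chromosomes 1 to 19 and X: *Piwil1*, *Piwil2*, *Piwil4*, *Mov10l1*, *Mael*, *Asz1*, *Pld6*, *Ddx4*, *Gtsf1* and *Henmt1*. The mark measured was H3K4me3, the histone modification found at active promoters and also deposited by PRDM9 around its binding sites at recombination hotspots. For each gene, narrow peaks with a centre within 1 kb of any annotated transcript start were taken as its start peaks, the broad peak over a start gave the width of the marked domain, and other narrow peaks inside the gene were taken as gene-body peaks. The animals were adult males of 23 weeks, F1 hybrids of C57BL/6J and CAST/EiJ that carry a Humanized and a CAST allele of *Prdm9*. The Humanized allele has the zinc fingers of the human protein in place of those of the C57BL/6J protein. Whole testis gave 2 H3K4me3 ChIP libraries and 1 input chromatin library, all of a single condition, so no comparison of conditions or genotypes exists. The paper describes littermates with a testis from each, whereas the labels describe the testes of a single male, and the spread between the 2 replicates may therefore be technical.

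PIWI proteins are Argonaute-family proteins of the germ line that are guided by PIWI-interacting RNAs (piRNAs). They are known for silencing transposons in male germ cells before and around birth, and in adult testis they act with the abundant piRNAs of pachytene spermatocytes and round spermatids. Precursor transcripts are handed to nucleases on the mitochondrial surface, loaded into PIWI proteins in the germ granules called nuage, and finished by trimming and methylation of the piRNA end. Whole testis holds many germ cell stages and somatic cells, and a lower value from fewer marked cells cannot be told apart from less mark per cell.

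Every member carried H3K4me3 at an annotated start. A narrow start peak was found for 10 of 10, beside 77.4% of all protein-coding genes, and a broad peak lay over a start of 10 of 10, beside 76.5%. The marked domains were wide for several members: 6 of 10 had a broad start peak of 6 kb or more, beside 15.2% of all protein-coding genes. *Piwil4* was the exception in level and in width, with a start peak 9.73-fold below the next lowest member on the scale of fragments per 1000000 of summed coverage.

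The promoters that carry these peaks differed in sequence. The stretches below, from the RefSeq promoter table of build GRCm38.p6, are shown because they belong to the member with the most fragments at its start (*Mael*), to a PIWI gene and a helicase gene that also hold an E-box (*Piwil1*, *Mov10l1*), and to the member with the fewest fragments (*Piwil4*). Each reads in the direction of the gene, 5′ to 3′, covers the bases before the RefSeq start that lie in no annotated exon, and has in capitals the matches on either strand to the E-box CACGTG, the E2F site GGCGGGAA, the MYB sites CAACNG and TAACNG, the cyclic AMP response element TGACGTCA, the GC box GGGCGG and the CCAAT box CCAAT.
Mael, chr1:166238748-166238994, minus strand: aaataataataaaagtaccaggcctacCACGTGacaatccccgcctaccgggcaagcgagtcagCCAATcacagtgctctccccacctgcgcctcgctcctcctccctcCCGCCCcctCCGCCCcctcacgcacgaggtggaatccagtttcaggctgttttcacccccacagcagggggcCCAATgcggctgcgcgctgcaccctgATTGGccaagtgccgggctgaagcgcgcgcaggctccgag
Piwil1, chr5:128736030-128736173, plus strand: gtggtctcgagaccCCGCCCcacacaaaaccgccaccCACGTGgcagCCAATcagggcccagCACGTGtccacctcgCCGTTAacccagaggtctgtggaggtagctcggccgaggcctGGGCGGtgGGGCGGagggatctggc
Mov10l1, chr15:88982744-88982908, plus strand: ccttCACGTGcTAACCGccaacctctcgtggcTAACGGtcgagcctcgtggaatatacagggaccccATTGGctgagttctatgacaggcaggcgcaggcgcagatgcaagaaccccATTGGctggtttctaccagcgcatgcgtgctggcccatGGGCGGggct
Piwil4, chr9:14740734-14740922, minus strand: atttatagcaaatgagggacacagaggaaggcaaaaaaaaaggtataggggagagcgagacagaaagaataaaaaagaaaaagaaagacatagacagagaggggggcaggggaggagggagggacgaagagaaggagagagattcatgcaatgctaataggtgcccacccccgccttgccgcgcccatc
The stretch of *Mael* has 1 E-box, 2 GC boxes and 3 CCAAT boxes. That of *Piwil1* has 2 E-boxes, 3 GC boxes, 1 MYB site and 1 CCAAT box. That of *Mov10l1* has 1 E-box, 2 MYB sites, 1 GC box and 2 CCAAT boxes. The stretch of *Piwil4* has none of these words and is rich in runs of A and G. Lack of these words was not particular to *Piwil4*. The whole promoter window of *Gtsf1*, of the kind described below, also has none, and its start peak had 932 and 1048 ChIP fragments.

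Of the 10 members, 9 matched an entry of the promoter table by symbol, and *Piwil2* had none. Over the whole window of 300 bases, 250 before the start and 50 after it, an E-box was present in 4 of these 9 promoters (*Piwil1*, *Mov10l1*, *Mael* and *Ddx4*), and 7.15% of all 32851 promoters in the table hold one. The E-box and the E2F site are bound by a repressor complex known to keep germline genes silent in somatic cells. The E2F site was present in *Ddx4* alone among the 9, and in 2.19% of all promoters. GC boxes were present in 7 of the 9 (35.7% of all), CCAAT boxes in 4 (37.4%), MYB sites in 4 (49.7%) and the cyclic AMP response element in 0 (1.79%). A match to these letters is a description and does not show that a factor binds.

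The 9 promoters all held more CpG dinucleotides than the median promoter of the table. Their median was 20 CpGs in 300 bases, beside 7 over all promoters, and their median ratio of observed to expected CpG was 0.70, beside 0.38. *Ddx4* had the most with 38, followed by *Henmt1* with 31, *Pld6* with 25 and *Mael* with 24. At the low end *Piwil4* had 11, *Gtsf1* 13 and *Asz1* 17. The order by CpG was not the order by enrichment, because *Gtsf1* had the second highest enrichment of the members on a promoter with few CpGs for this group. That enrichment rests on 11 input fragments. By fragments per 1000000 of summed coverage the orders were closer. *Ddx4*, *Henmt1*, *Pld6*, *Mael* and *Mov10l1*, with 20 or more CpGs, had the highest such values, though in another order among themselves. *Piwil4* was last on both. A relation of CpG to H3K4me3 was not tested. The table's start for *Henmt1* lies 362 bp beyond the centre of its peak and that for *Pld6* lies 205 bp beyond it, and so these 2 windows begin inside their transcribed regions. The promoter table covers 27025 symbols, more than the 21755 protein-coding genes, and was not limited to promoters with H3K4me3. The CpG medians and motif shares over all promoters are therefore no comparison with other marked protein-coding promoters, which was not made.

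Levels at the starts are given as the fragments that cover the centre of the start peak in each library, uncorrected for library size, and positions are in build mm10. Summed over all 101978 narrow peaks, the coverage was 17621116 in replicate 1, 19094837 in replicate 2 against 1250138 in the input, and the median narrow peak had 26, 31 and 8 fragments. The enrichment of a peak is the authors' estimate of ChIP coverage over local background from both replicates together, a ratio with 0 for none, which is the fold over background minus 1. It becomes imprecise where few input fragments lie under a peak, and an input count of 11 to 31 stands behind 9 of the 10 members.

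*Piwil1* (MIWI) is the PIWI protein of pachytene spermatocytes and round spermatids. Its start peak on chromosome 5, centred at 128736306, had 830 fragments in replicate 1, 866 in replicate 2 against 24 in the input. The enrichment of 33.1 lay at the 46.0 percentile of protein-coding genes with a start peak. The level of *Piwil1* was thus near the middle of all marked promoters, while its broad peak of 8300 bp lay at the 90.4 percentile of width. The peak centre also lay 277 bp from the start of *4930553I04Rik*, a gene model of uncertain status on the opposite strand, and the mark of these starts cannot be told apart.

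*Piwil2* (MILI) is the PIWI protein present from fetal germ cells to round spermatids. Its start peak on chromosome 14, centred at 70428942, had 775 fragments in replicate 1, 916 in replicate 2 against 25 in the input. Its enrichment was 31.7, at the 44.8 percentile, and its broad peak measured 4800 bp. The values of *Piwil2* and *Piwil1* were close: scaled to the summed coverage of each library, they were 46.0 ± 2.82 and 46.2 ± 1.24 fragments per 1000000 (SD, n = 2), and the ranges of their replicates overlapped. A small nuclear RNA gene, *Gm24890*, starts 345 bp from the same peak centre inside *Piwil2*.

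*Piwil4* (MIWI2) is the nuclear PIWI protein of fetal germ cells, where it directs DNA methylation of transposons. Its start peak on chromosome 9, centred at 14740615, had 90 fragments in replicate 1, 83 in replicate 2 against 7 in the input. Both ChIP libraries were far below those of every other member, whose lowest value was 775, and still above the input. The enrichment was 11.5, at the 19.8 percentile, with a deposited p-value of 1.24e-103 against no enrichment. Its broad peak of 1000 bp lay at the 3.85 percentile of width. Counting error leaves the ratio of summed ChIP to input fragments at *Piwil4*, 24.7, between 11.7 and 62.4 (95% exact interval), which overlapped the intervals of *Piwil1*, *Piwil2*, *Pld6* and *Henmt1* and lay below those of the other 5 members. *Piwil4* had a second, weaker start peak at 14718254, at the start of an internal noncoding transcript, with 31, 26 and 15 fragments and an enrichment of 1.66.

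By fragments the helicases held ranks 2 and 3 of the members. *Ddx4* (VASA, MVH) is a DEAD-box helicase of the nuage that handles piRNA intermediates. Its start peak on chromosome 13, centred at 112652097, had 1738 fragments in replicate 1, 1871 in replicate 2 against 23 in the input, with an enrichment of 73.7 at the 81.6 percentile. *Mov10l1* is the helicase that binds piRNA precursors and feeds them into processing. Its start peak on chromosome 15, centred at 88983077, had 1396, 1459 and 28 fragments in the same order, with an enrichment of 47.9 at the 59.7 percentile. Both genes exceeded the 3 PIWI genes in each of the 2 ChIP libraries, and their broad peaks of 12700 bp and 10400 bp lay at the 96.7 and 94.6 percentiles of width. A second start peak of *Mov10l1* at 89019636, near the start of an internal transcript, had 25, 41 and 6 fragments and an enrichment of 5.05.

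*Mael* (Maelstrom) is a nuage protein needed for transposon silencing and for the output of pachytene piRNAs. Its start peak on chromosome 1, centred at 166238531, was the highest of the members, with 1878 fragments in replicate 1, 2012 in replicate 2 against 19 in the input. The enrichment was 96.3, at the 93.1 percentile, and the broad peak measured 8600 bp. *Mael* was the only member among the highest 10% of marked genes by enrichment.

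*Asz1* (GASZ) and *Pld6* (MitoPLD, Zucchini) act on the outer membrane of mitochondria, the first as a scaffold protein of the nuage and the second as the nuclease that cuts piRNA precursors. The start peak of *Asz1* on chromosome 6, centred at 18108918, had 875 fragments in replicate 1, 1100 in replicate 2 against 14 in the input, and an enrichment of 66.3. The start peak of *Pld6* on chromosome 11, centred at 59787427, had 1230, 1199 and 29 fragments and an enrichment of 39.3. *Pld6* was thus higher than *Asz1* in fragments and lower in enrichment, with 29 input fragments under its peak against 14. They also differed in width, with 4100 bp for *Asz1* and 12900 bp for *Pld6*, the widest of the members, although the annotated *Pld6* gene spans 3749 bp.

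*Gtsf1* is a small zinc-finger cofactor that raises the slicing activity of PIWI proteins, and *Henmt1* is the methyltransferase that protects the finished piRNA end. The start peak of *Gtsf1* on chromosome 15, centred at 103430261, had 932 fragments in replicate 1, 1048 in replicate 2 against 11 in the input, and an enrichment of 84.6 at the 88.3 percentile. The start peak of *Henmt1* on chromosome 3, centred at 108940195, had 1042, 1090 and 31 fragments and an enrichment of 32.2 at the 45.2 percentile. *Henmt1* had slightly more ChIP fragments in both libraries, and *Gtsf1* a far higher enrichment over a lower input. With 11 input fragments, the ratio of summed ChIP to input fragments at *Gtsf1* was 180.0 and its exact 95% interval ran from 100.4 to 361, whereas at *Henmt1* it was 68.8 with an interval of 48.3 to 101. The start peak of *Henmt1* is shared with *Gm9857*, a protein-coding gene on the opposite strand that starts 250 bp from the peak centre.

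**Figure D1:**
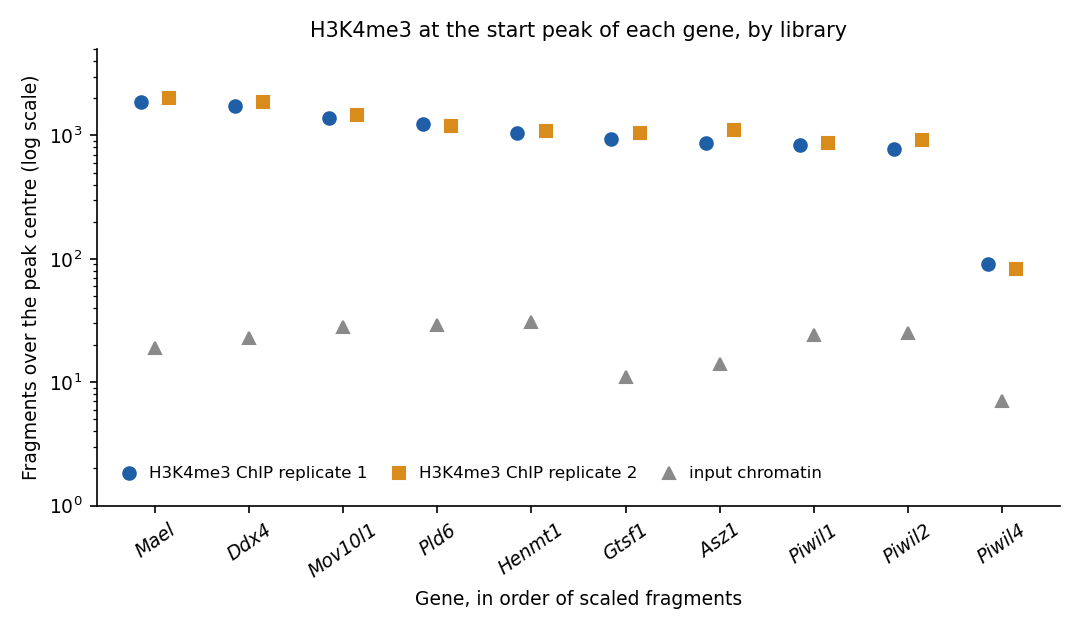
Fragments over the centre of the strongest start peak (y axis, log scale) of each of the 10 genes in the 2 H3K4me3 ChIP replicates and the input, ordered by the mean of scaled fragments. In 9 genes the ChIP values lie between 775 and 2012, and *Piwil4* stands apart at 90 and 83.

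Scaled to fragments per 1000000 of the summed coverage, the order of the members was *Mael* (106 ± 0.85, SD, n = 2), *Ddx4* (98.3 ± 0.46), *Mov10l1* (77.8 ± 1.99), *Pld6* (66.3 ± 4.96), *Henmt1* (58.1 ± 1.45), *Gtsf1* (53.9 ± 1.41), *Asz1* (53.6 ± 5.62), *Piwil1*, *Piwil2* and *Piwil4* (4.73 ± 0.54). In this order the replicate ranges of neighbours overlapped for *Gtsf1* and *Asz1* and for *Piwil1* and *Piwil2*, and not for the other 7 pairs. With 2 replicates, non-overlap of ranges is a description of these libraries. By enrichment the order was different: *Gtsf1* moved from rank 6 to rank 2, *Asz1* from rank 7 to rank 4, and *Pld6* from rank 4 to rank 6. The top place of *Mael* and the last place of *Piwil4* were the same on both scales.

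The 2 replicates were compared at each start peak by the share of ChIP fragments from replicate 1, tested against the 48.0% that replicate 1 held over all narrow peaks (two-sided exact binomial test, Benjamini-Hochberg adjusted over 16842 genes). This comparison concerns the 2 libraries and no condition. The libraries differed beyond counting error at *Asz1*, where replicate 1 held 44.3% (95% exact interval 42.1 to 46.5%, exact p = 0.00109, adjusted p = 0.0191). At *Pld6* the share was 50.6% (48.6 to 52.6%, exact p = 0.00933), which did not pass after adjustment (adjusted p = 0.0836). The other 8 members had adjusted p-values of 0.296 or more, in a test that only counts fragments. A call for 1 of 10 members compares with 8.64% of all genes tested.

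**Figure D2:**
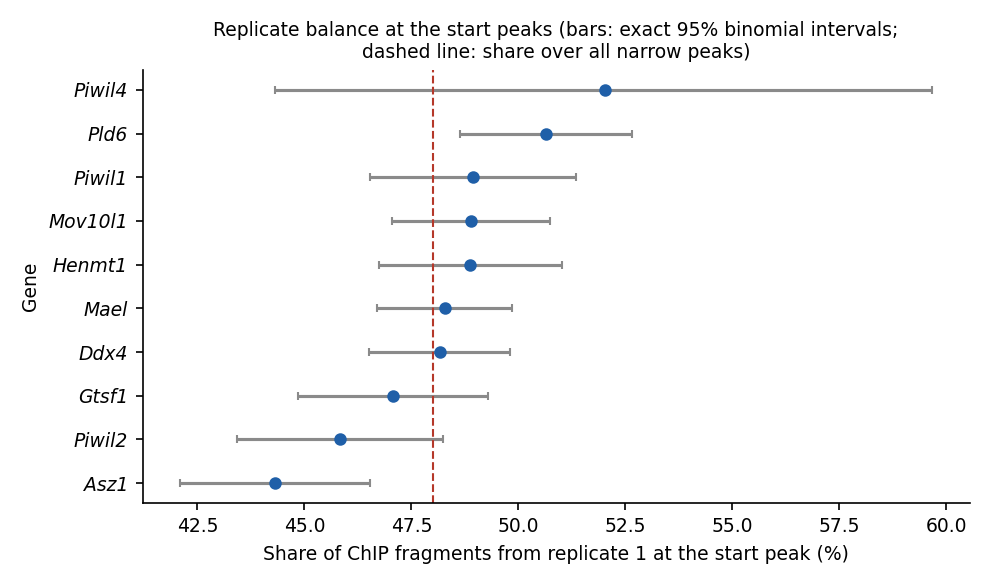
Share of the ChIP fragments at the start peak that came from replicate 1 (x axis, percent) for each gene, with exact 95% binomial intervals as bars and the share over all narrow peaks, 48.0%, as a dashed line. The interval of *Asz1* ends at 46.5%, left of the line, that of *Pld6* begins at 48.6%, right of it, and the other 8 cross it.

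The members' medians exceeded those of all genes in width and, by less, in height. Their median broad start peak measured 7200 bp, beside 3400 bp over all protein-coding genes with one, and 9 of 10 were above that median. Their median enrichment was 43.6, beside 37.6 over all genes with a start peak. Among the highest 10% of genes there were 5 members by width and 1 by enrichment. The members' medians also exceeded those of the germ cell markers, there by more in height than in width. These markers had a median width of 5550 bp, 6 of 12 with 6 kb or more, and a median enrichment of 20.7. The members do not count as replicates and no test was made over them.

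The 6 members with 6 kb or more were *Pld6* (12900 bp), *Ddx4* (12700 bp), *Mov10l1* (10400 bp), *Mael* (8600 bp), *Piwil1* (8300 bp) and *Gtsf1* (6100 bp). The limit of 6 kb was set with these values known, and the members nearest to it were *Gtsf1* inside and *Piwil2* outside with 4800 bp. *Asz1* (4100 bp), *Henmt1* (3500 bp) and *Piwil4* (1000 bp) were the remaining members. Domains reached in both directions: that of *Ddx4* extended 5999 bp upstream and 6700 bp downstream of the start, that of *Pld6* 2758 bp and 10141 bp, and that of *Mov10l1* 6593 bp and 3806 bp.

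Part of this width covered starts of other genes. The broad peak of *Mov10l1* also holds the start of *Mlc1*, 4070 bp from the peak centre, and of the pseudogene *Gm8702*, and that of *Pld6* holds the start of the noncoding gene *Gm12264*, 7106 bp away. These 3 genes are named after their positions were seen. The broad peaks of *Piwil1*, *Piwil2* and *Henmt1* hold the neighbouring starts named above. In the 5 members whose broad peak holds no other annotated start, 3 (*Mael*, *Ddx4* and *Gtsf1*) still measured 6 kb or more. Several narrow peaks were merged in the widest domains, with 4 in that of *Pld6*, 3 in that of *Ddx4* and 2 each in those of *Piwil1* and *Mov10l1*.

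**Figure D3:**
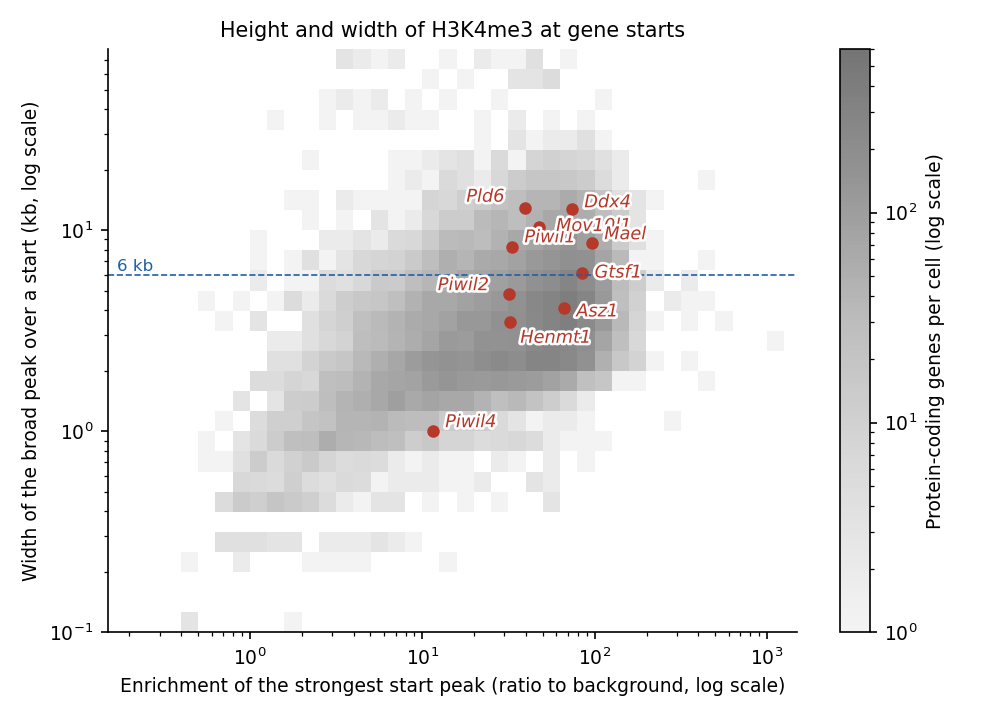
Enrichment of the strongest start peak (x axis, ratio to background, log scale) against the width of the broad peak over a start (y axis, kb, log scale), with the 10 genes in red and the number of protein-coding genes per cell in grey. The dashed line marks 6 kb: 6 genes lie above it, and *Piwil4* lies near the lower edge with 1000 bp and an enrichment of 11.5.

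The peak centres lay just inside the genes. In 9 of 10 members the centre was downstream of the nearest start, by 81 to 215 bp, and *Gtsf1* was the exception with a centre 17 bp upstream. This exception depends on which start is used, since the centre lay 209 bp downstream of the *Gtsf1* start with the highest support level. The members' median distance from the nearest start was 124 bp downstream, beside 131 bp over all genes with a start peak, of which 77.4% had the centre downstream. The members have 42 annotated transcripts with 40 distinct starts, 32 of them within 1 kb of a narrow peak and 35 inside a broad peak.

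The other 5 starts, all of alternative transcripts, lay outside every broad peak. The most distant start of *Piwil1*, at 128702524, belongs to a protein-coding transcript with the highest support level and lies 33650 bp upstream of the marked start. It had no narrow peak within 1 kb, the nearest being 1873 bp away. The others were an internal start of *Piwil4* at 14705070, which also begins a protein-coding transcript, starts of *Mov10l1* at 89020421, which has the weak second peak 785 bp away, and at 89023613, and a retained-intron transcript of *Asz1* at 18075107, 28530 bp from any narrow peak. *Mael*, *Pld6*, *Ddx4*, *Gtsf1*, *Henmt1* and *Piwil2* had every annotated start inside their broad peak.

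All start peaks of the members overlapped regions that the authors list as PRDM9-independent, meaning peak regions found in common in mice that carry unlike *Prdm9* alleles. The broad start peak did so for 10 of 10 members, beside 72.5% of all protein-coding genes, and the centre of the strongest start peak lay inside such a region in 10 of 10. PRDM9 binds in early meiosis at sites set by its zinc fingers, and its marks appear away from promoters as well as in gene bodies. The peaks inside the genes were accordingly divided by these regions, and a peak outside them is called PRDM9-dependent here.

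There were 21 gene-body peaks in 7 of the 10 members, beside 51.4% of all protein-coding genes with any. The counts were 7 in *Mov10l1*, 5 in *Piwil1*, 2 each in *Piwil2*, *Piwil4*, *Mael* and *Ddx4*, and 1 in *Pld6*, while *Asz1*, *Gtsf1* and *Henmt1* had none. PRDM9-dependent peaks numbered 15, and 6 of 10 members held at least 1, beside 42.7% of all genes. Their share of the members' gene-body peaks was 71.4%, close to the 72.9% over all genes. Counting only those whose broad peak overlaps no PRDM9-independent region left 12 of the 15, and *Mael* then held none. Per 10 kb of gene the members had 0.489 peaks, beside 0.360 over all genes. The lists described below had 0.488 (other piRNA pathway genes) and 0.223 (Argonaute and microRNA genes).

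Gene-body peaks were more frequent in longer genes overall. Of the members, 9 span 20902 to 72244 bp, and 6 of these 9 had a gene-body peak, beside 69.7% of protein-coding genes between 20 kb and the longest member. The longest member, *Mov10l1*, had the most peaks. *Asz1*, the second longest with 58098 bp, had none. Of the 21 peaks, 19 lay in introns, 1 in a coding exon of *Piwil1* at 128745504 and 1 in a noncoding exon of *Pld6* at 59784681.

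The gene-body peaks were mostly far weaker than the strongest start peak of their gene. The second start peaks of *Piwil4* (enrichment 1.66) and *Mov10l1* (5.05) were weak as well. The gene-body peaks had a median enrichment of 3.40 and a median coverage of 18 fragments in replicate 1, 28 in replicate 2 against 6 in the input. The strongest in fragments was the PRDM9-independent peak of *Pld6* at 59784681, with 237, 249 and 27 fragments, which lies inside the broad start peak. In enrichment the strongest was a PRDM9-independent intronic peak of *Mov10l1* at 89039104, with 33 and 50 ChIP fragments and 0 in the input, and its value of 78.0 rests on that empty input.

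Among PRDM9-dependent peaks the enrichment ran from 1.00 to 8.34, with a median of 3.16, beside 2.81 over all PRDM9-dependent gene-body peaks. The highest, near the 3′ end of *Mov10l1* at 89050581, had 35 fragments in replicate 1, 37 in replicate 2 against 4 in the input. In *Piwil1* the peak at 128704397 had 26, 42 and 6 fragments and an enrichment of 5.20, and lies between the unmarked upstream start and the marked one. In *Piwil2* the peaks at 70387599 and 70405836 had 26, 30 and 8 and 15, 30 and 6 fragments.

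In 2 of the 15, raw fragments exceeded the input in replicate 2 and not in replicate 1, without correction for library size. The *Piwil4* peak at 14699536 had 12, 17 and 12 fragments, with an enrichment of 1.00. The *Mael* peak at 166231598 had 6, 14 and 7, with an enrichment of 1.21. Their deposited p-values against no enrichment (the authors' likelihood ratio test) were 3.17e-11 and 9.05e-09. These counts are too low to compare with each other. The known 13-base motif of human PRDM9 was present on either strand within 150 bp of 2 of the 15 centres, in *Piwil1* and in *Ddx4*. It was present at 5.92% of all PRDM9-dependent and 7.02% of all PRDM9-independent narrow peaks, and the PRDM9-dependent class also holds peaks of the CAST allele, whose motif was not searched.

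**Figure D4:**
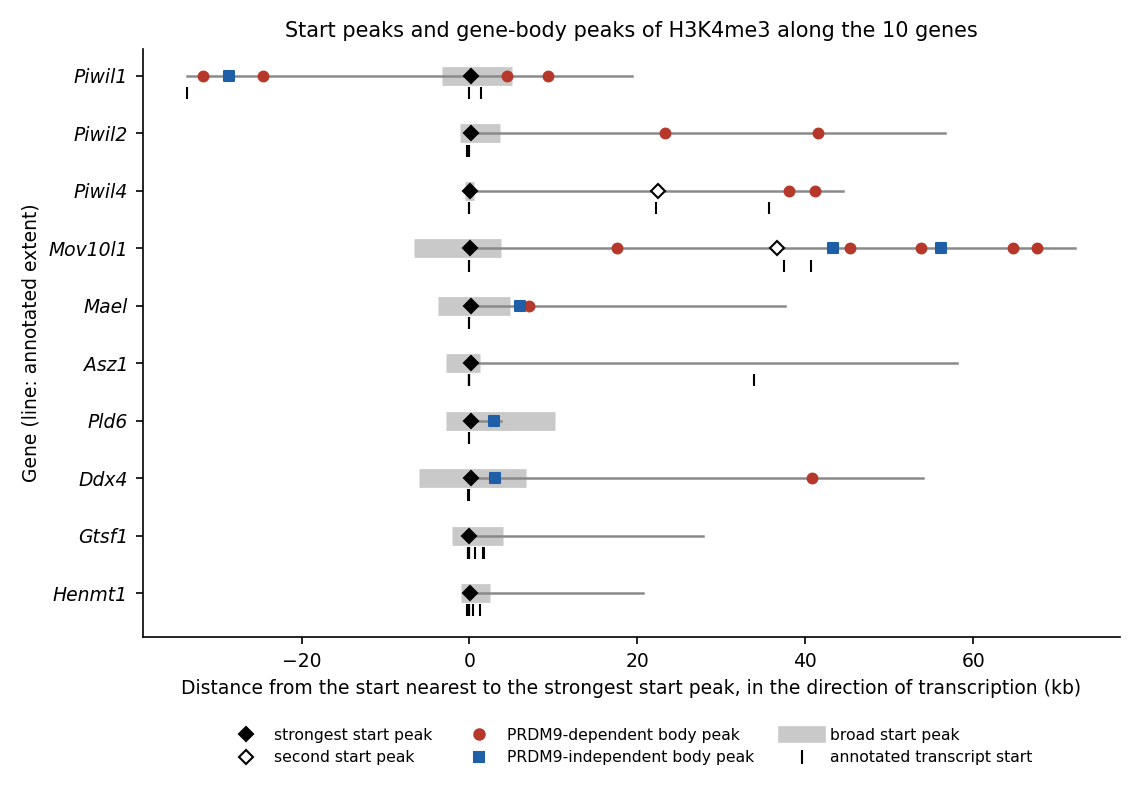
Start peaks (filled diamonds, weaker second ones open), PRDM9-dependent (circles) and PRDM9-independent (squares) gene-body peaks along the 10 genes, by distance in kb from the marked start in the direction of transcription. Grey bars are broad start peaks, grey lines the annotated gene and short ticks the transcript starts. The 7 peaks of *Mov10l1* spread over its body, the distal *Piwil1* start at the left has no bar, and the broad peak of *Pld6* runs past its gene.

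Other genes of the piRNA pathway had a similar median level and a lower median width, with no test made. Of 20, 18 had a start peak, with *Dnmt3c* and *Nanos2* without one. Their median enrichment was 45.4 and their median broad width 4200 bp, and 6 of 20 had 6 kb or more. The widest broad start peak among them measured 17100 bp, above the 12900 bp of the widest member, *Pld6*. The Tudor-domain gene *Tdrd7*, a scaffold of germ granules, was highest with 1779 fragments in replicate 1, 1905 in replicate 2, an input of 9 and an enrichment of 193. *Dnmt3l*, the cofactor of DNA methylation in fetal germ cells, was lowest at 4.97, with 30, 35 and 6 fragments.

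The Argonaute and microRNA genes, the related pathway of all tissues, had a start peak in 10 of 10, from *Ago1* at 32.4 to *Dicer1* at 111, the last on an empty input with 59 and 59 ChIP fragments. Their median enrichment of 62.0 was above the members' 43.6, and their median broad width of 3350 bp below the members' 7200 bp. Only 2 of 10 had 6 kb or more. The members were thus lower and wider than this list, a description of 10 genes against 10.

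Markers of the cell types that whole testis holds mostly carried a start peak, as did 77.4% of all protein-coding genes. A start peak was present in 11 of 12 germ cell markers (median enrichment 20.7, *Sycp3* highest at 113, *Tnp1* lowest at 9.43, *Acrv1* without), 5 of 6 Sertoli cell markers (15.4, from *Cldn11* at 8.41 to *Rhox5* at 39.4, *Amh* without, with the value of *Rhox5* resting on 16 and 26 ChIP fragments over an empty input) and 5 of 6 Leydig cell markers (10.3, from *Cyp17a1* at 4.36 to *Insl3* at 15.0, *Hsd3b1* without). It was present in 5 of 6 markers of myoid, vascular and macrophage cells (4.31, from *Adgre1* at 3.01 to *Cdh5* at 6.22, *Myh11* without). Of 13 genes of other tissues, 6 had one, with a median of 6.50, from *Gfap* at 1.46 to *Actn3* at 64.9, above every Leydig marker, and *Alb*, *Apoa1*, *Gcg*, *Ins1*, *Ins2*, *Krt5* and *Myh6* had none. Lack of a narrow start peak was not lack of the mark in every case. *Acrv1* and *Myh11* each had a broad peak over a start, of 7600 bp and 4500 bp. The enrichment of *Piwil4* lay within the range of the Leydig and Sertoli lists and at the low end of the germ cell list, and the cell type that carries its mark was not tested. The other 9 members, at 31.7 or more, were above every Leydig and vascular marker. They were not above every gene of the remaining lists. *Rhox5* exceeded *Piwil1*, *Piwil2*, *Pld6* and *Henmt1*, and *Actn3* exceeded those and *Mov10l1*. *Piwil1*, *Piwil2* and *Henmt1* also lay below the median of 37.6 over all genes with a start peak.

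**Figure D5:**
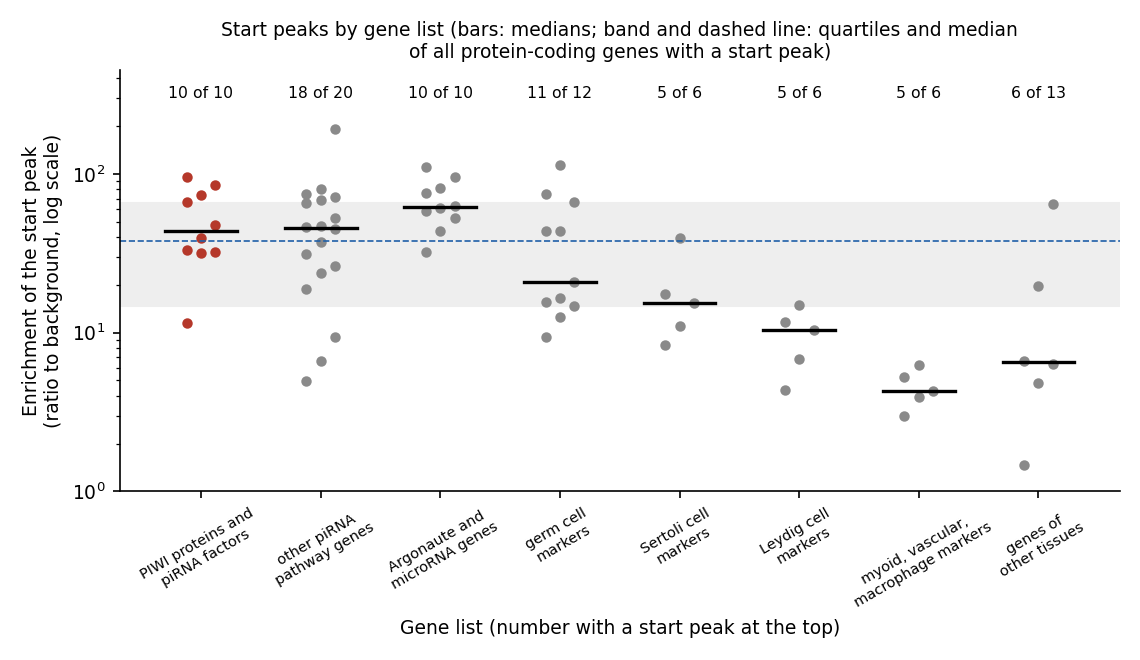
Enrichment of the start peak (y axis, ratio to background, log scale) for each gene with one, by list, with the number of genes with a start peak at the top and medians as bars. The band and dashed line give the quartiles and median of all protein-coding genes with a start peak. The members in red spread from 11.5 to 96.3 around a median of 43.6. The medians of the germ cell list (20.7), the somatic cell lists and the genes of other tissues lie lower. Those of the other piRNA pathway genes (45.4) and the Argonaute and microRNA genes (62.0) lie higher.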

How the data were processed

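H3K4me3 ChIP-seq of whole testis was deposited as peak lists of 1 condition. Per the submitters' processing notes and the paper, the authors aligned reads to mm10 (BWA, then Stampy), kept proper, unique pairs, used SAMtools and bedtools for coverage by fragments, and called peaks in the 2 ChIP replicates jointly over the input, with a p-value cutoff of 1e-06 for narrow peaks, while broad peaks are adjacent enriched bins of 100 bp merged at a cutoff of 1e-05. The deposited counts are fragments over each narrow peak centre in each library, not normalized. The deposited enrichment is the authors' maximum likelihood ratio (fold over local background minus 1, with 0 for none), and the deposited p-value is their likelihood ratio test, with very small values written as 0. Broad peaks and PRDM9-independent regions were deposited as positions.

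Starts came from GENCODE vM21. A narrow peak belonged to a start within 1000 bp, the strongest by enrichment being used, and a broad peak or region by an overlap of 1 bp. Peaks inside a gene and over 1000 bp from every start were gene-body peaks, PRDM9-dependent where the centre lay in no PRDM9-independent region. Whether deposited centres count from 0 or 1 is not given in the sources used here, and they are printed as deposited. Fragments were scaled per 1000000 of the summed coverage. Intervals are exact (Clopper-Pearson) and cover counting error only. The replicate share was tested by an exact binomial test with Benjamini-Hochberg adjustment over all genes with a start peak (threshold 0.05). Sequences came from the RefSeq promoter table and genome. Members and gene lists were chosen with earlier results of these data known. Genes are named by rule: the 10 members, genes starting within 1 kb of a member's peak, and of each list the highest, the lowest and those without a narrow start peak. Other genes that start inside a member's broad peak were named after their positions were seen. Members were not treated as replicates and no list was tested. Some genes of the list of other tissues are not reported here.

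Peak assignment was checked on simulated data against an exhaustive search. In 10000 simulated peaks, 200 of them changed, changes of 1.5-fold were called in 21 of 100 peaks, among them 12 of 12 with 500 or more fragments, and 3 of 9800 unchanged peaks were called. Alternatives were other distances, transcript sets, p-value limits, definitions and single replicates. Software was scipy 1.17.1, numpy 2.4.6, statsmodels 0.14.6, matplotlib 3.10.9 and pandas 2.3.3 under Python 3.11.15.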

Additional observations from a re-analysis of the deposited data

How the results depend on the processing

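The results were recomputed under 25 alternatives. In 23 of them counts kept within 1.5 times and values within the spread between replicates: 10 of 10 members had a start peak at 500 bp, at 2 kb, with protein-coding transcripts alone and under the stricter limit of 1e-10 on the deposited values, the median width remained 7200 bp, and gene-body peaks numbered 18 to 20 instead of 21. The limits of 5 kb and 8 kb for a wide domain, chosen after seeing the data, gave 6 and 5 members, beside 21.5% and 8.26% of all genes. The median enrichment of 43.6 moved to 45.2 without replicate 1 and to 44.6 without replicate 2, where coverage over input with 1 added to both replaced the authors' estimate. These moves exceed the replicate SD of 0.403, and part of them comes from that replacement by construction. No paired analysis was possible because the ChIP replicates belong to 1 condition with a single input. Peaks were called jointly, so presence in each replicate alone was not tested. Few input fragments limit the enrichment of *Gtsf1*, *Asz1* and *Piwil4*, and the low coverage limits the gene-body peaks.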
